A study of Mus musculus with 2 samples.

Results

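The cyclin-dependent kinase inhibitors are the proteins that stop the cell cycle by binding its kinases. All 8 mouse genes named Cdkn were followed here in newborn lens, Cdkn1a, Cdkn1b, Cdkn1c, Cdkn2a, Cdkn2b, Cdkn2c, Cdkn2d and Cdkn3. They were chosen by name and not by a cut on their signals, but with earlier results of these data known. Matching the RefSeq transcript named for each probe to gene symbols gave 11 probes for the 8 genes, out of 55655 probes and 20655 named genes on the array. Cdkn1a, Cdkn2a and Cdkn2b had 2 probes each and the other genes 1. Total RNA of lens taken at postnatal day 0 was labelled with Cy3 and hybridised to Agilent 1-colour arrays. The series held 2 samples. The Foxp1 KO sample was lens of mice with a lens-specific knockout of the forkhead transcription factor gene Foxp1, and the wild-type sample was lens of control litter mates, both on a mixed C57BL/6 background. The treatment text of both samples reads Foxp1-flox/flox; Pax6-L-Cre, so the labels do not settle whether the control carried the Cre driver, and the groups were taken from the genotype labels. By its name the Cre is driven from Pax6 regulatory DNA, and which cells it had reached was not measured here. The labels do not say how many animals gave the lenses of a sample.

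Lens grows from a sheet of dividing epithelial cells. Cells that reach the equator of the lens leave the cell cycle and elongate into fibre cells, and this exit needs inhibitors of the CIP/KIP family, above all Cdkn1b (p27Kip1) and Cdkn1c (p57Kip2), which bind complexes of cyclins with their kinases. The INK4 family, made of Cdkn2a (p16INK4a), Cdkn2b (p15INK4b), Cdkn2c (p18INK4c) and Cdkn2d (p19INK4d), binds the kinases Cdk4 and Cdk6 alone and keeps cyclin D away from them. Cdkn3 is set apart from these families, as it is a phosphatase that removes the activating phosphate from Cdk2.

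Each genotype had 1 array, so no test across samples was possible, no p-value is given, and every difference below is a difference between these arrays with no replicate check. Signals are processed spot intensities in arbitrary units, and differences are on the log2 scale after division by the 75th percentile of each array, as Foxp1 KO minus wild-type. That percentile was 279.9 on the Foxp1 KO array and 282.6 on the wild-type array, and 56.9% of the gene spots were well above background on the Foxp1 KO array against 67.5% on the wild-type array. In place of a test, genes were held to a rule of size, a signal ratio of 2 or more (a log2 difference of 1). By this rule 1.02% of the 14254 genes measured on both arrays were higher in Foxp1 KO lens and 5.86% were lower. Foxp1 itself was lower with each of its 3 probes, by differences of -1.82, -1.84 and -1.33. Dim probes tended to read low on the Foxp1 KO array. In the dimmest of 5 equal signal classes the median difference of all measured probes was -0.68, in the next class it was -0.28, and in the other classes it lay between -0.03 and 0.08. Added spike-in RNA showed the same, with -1.12 for a spike-in at signals of 37.2 on the Foxp1 KO array and 81.4 on the wild-type array, and -0.11 for one at 261 and 284. Spot noise was taken from 281 measured probes with 5 or more spots per array, and the SD of a spot difference ran between 0.34 in the dimmest class and 0.08 in the brightest. The SD of the differences of all measured probes was 0.73 in the dimmest class, 0.74 in the next, 0.46 in the middle class, 0.35 in the fourth and 0.27 in the brightest. In bulk RNA, fewer cells of a type and less RNA per cell cannot be told apart.

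Of the 8 inhibitor genes, each measured on both arrays with at least 1 probe, 2 were at least 2-fold higher in Foxp1 KO lens (Cdkn1a and Cdkn2c), 1 was at least 2-fold lower (Cdkn2a) and 5 lay between. Against the shares of 1.02% and 5.86% among all measured genes, the higher count is 2 of 8 genes and the lower count 1 of 8 genes. The differences of the 8 genes ran between -1.02 and 1.41 with a median of 0.15, against a median of 0.01 over all measured genes. Of the 8 genes 5 lay above 0, as did 7257 of the 14254 measured genes. Cdkn1c and Cdkn2b are among the other 3, and Cdkn1c lay within spot noise of 0. With array medians as the scale, which moved the median of all genes to 1.08, all 8 lay above 0. The highest of them, Cdkn1a, is of the CIP/KIP family. The lowest, Cdkn2a, is named with the INK4 family but also encodes p19ARF, which is no kinase inhibitor.

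**Figure D1:**
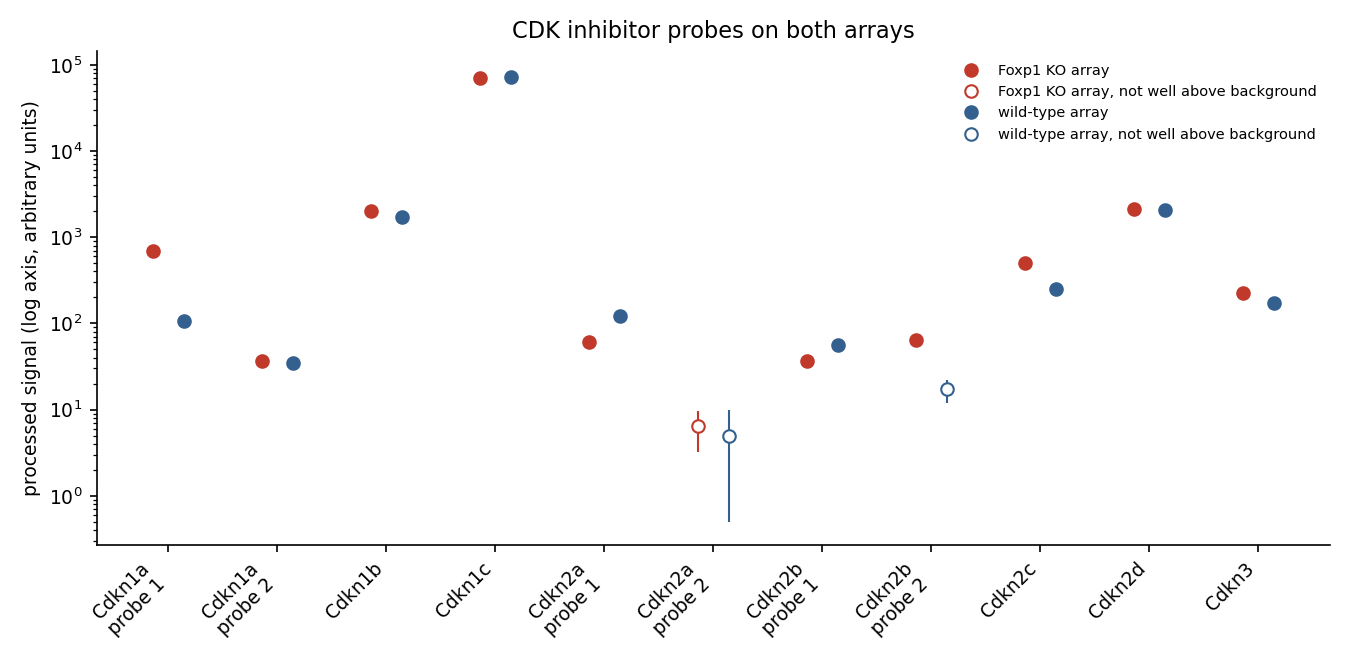
Processed signal (arbitrary units, log axis) of the 11 CDK inhibitor probes on the Foxp1 KO array (red, left) and the wild-type array (blue, right). Probes of a gene are numbered by brightness, bars are the error estimate of the extraction software, open points were not well above background, and the wild-type bar of the second Cdkn2a probe, which would reach below 0, is cut short. The first Cdkn1a probe stands at 691 in Foxp1 KO lens against 106 in wild-type lens, whereas Cdkn1b, Cdkn1c and Cdkn2d nearly coincide.

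Cdkn1a encodes p21Cip1, the inhibitor that p53 induces after DNA damage and other stress. Its first probe, A_51_P363947, is printed at 10 places on each array, and 9 places were free of outlier flags on both. Over these 9 spots the signal lay between 640 and 746 with a median of 696 on the Foxp1 KO array, and between 95.2 and 115.7 with a median of 104.7 on the wild-type array. The ranges were far apart, and all 9 spot pairs differed by more than 2-fold. The mean difference was 2.72 ± 0.13 (SD over 9 spots of the same pair of arrays), or 6.60-fold higher in Foxp1 KO lens. The spots repeat 1 hybridisation, so this SD holds spot noise and no variation between animals. Among the 281 probes printed often enough to give a spot error, no other differed by as much upwards, and 5 in all passed 2-fold higher. The tenth spot, flagged as an outlier on the wild-type array, read 741 in Foxp1 KO lens and 118 in wild-type lens.

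The second Cdkn1a probe, A_55_P1986282, carries the name of another RefSeq transcript of the gene and gave a smaller difference. It read 37.1 on the Foxp1 KO array and 35.1 on the wild-type array, a difference of 0.09. Both readings were called well above background but lay in the dimmest signal class, where 0.255% of measured probes passed 2-fold upwards and the median probe was at -0.68, so the probe stood 0.77 above the median of its class. The value depended on the scaling, as it was 1.22 after quantile normalization, 1.17 with array medians and 0.96 after cyclic loess. There the first probe stood at 2.86, 3.80 and 2.72, and with array medians the median of all genes was 1.08. The second probe stood at -0.003 with the 75th percentile over measured probes and at 0.002 after normexp correction. Under those 2 settings the first probe stood at 2.63 and 2.16. The gene's mean over both probes was 1.41, with an SD of 1.86 over the 2 probes. That mean describes neither probe, and 62 of the 14254 measured genes were as high or higher. The place of the 2 probes along the gene is not given in the sources used here, so which transcripts they read was not settled.

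**Figure D2:**
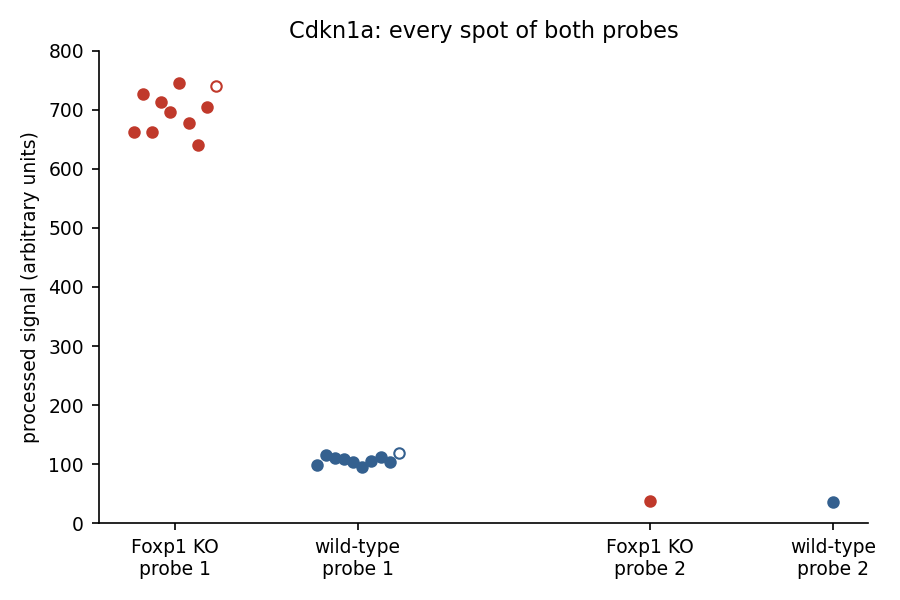
Processed signal (arbitrary units) of every spot of both Cdkn1a probes, Foxp1 KO array in red and wild-type array in blue. Open points are the spot pair left out for an outlier flag. The 9 kept spots of the first probe lie between 640 and 746 in Foxp1 KO lens and between 95.2 and 115.7 in wild-type lens, and the single spots of the second probe lie at 37.1 and 35.1.

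The RefSeq annotation (GRCm38.p6) gives Cdkn1a 2 start sites. The windows around them, 250 bases before to 50 after each start on the plus strand, are shown because this gene had the largest difference of the family. Capitals mark a p53 site in the first window and GC boxes (GGGCGG) in the second. The first window is chr17:29090729-29091028 and the second is chr17:29093519-29093818.
Cdkn1a window 1: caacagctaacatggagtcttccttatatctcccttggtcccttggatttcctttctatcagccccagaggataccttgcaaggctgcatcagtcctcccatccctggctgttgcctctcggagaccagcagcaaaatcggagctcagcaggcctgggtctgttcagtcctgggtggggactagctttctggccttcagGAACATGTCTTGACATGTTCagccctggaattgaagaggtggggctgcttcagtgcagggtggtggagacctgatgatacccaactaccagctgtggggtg
Cdkn1a window 2: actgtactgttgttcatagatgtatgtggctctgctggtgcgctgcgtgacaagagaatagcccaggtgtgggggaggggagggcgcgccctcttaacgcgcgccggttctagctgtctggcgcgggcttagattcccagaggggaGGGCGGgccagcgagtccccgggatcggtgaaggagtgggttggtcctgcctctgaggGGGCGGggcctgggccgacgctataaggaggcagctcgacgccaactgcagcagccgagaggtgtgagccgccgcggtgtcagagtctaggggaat
The p53 site was searched as a pair of adjacent p53 half-sites with at most 1 mismatch in 20 bases, a search chosen after the sequence had been read. The match in the first window has 1 mismatch, lies at chr17:29090928-29090947 and is 2841 bases before the second start. Of all 32851 RefSeq windows of the same length, 29 hold such a match (0.0883%), and a single half-site is held by 8.36%. GC boxes are held by 35.7% of all windows on either strand. A match is a string of letters and does not show that the protein binds there.

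Cdkn1b, the p27Kip1 gene, read 2007 on the Foxp1 KO array and 1704 on the wild-type array. The difference of 0.25 was above the spot SD of 0.08 for its signal class, below the SD of 0.27 over the probes of that class, and close to the 0.20 that the error estimate of the extraction software gives for the pair. Of all measured genes 2458 were as high or higher, so Cdkn1b sat within the bulk of the array. Cdkn1c, the p57Kip2 gene, is imprinted and expressed in the main from the maternal copy. It read 70496 on the Foxp1 KO array and 72590 on the wild-type array, a difference of -0.03 that is smaller than the spot SD of 0.08. With array medians Cdkn1b stood at 1.33 and Cdkn1c at 1.05, both past 2-fold, where the median of all genes was 1.08. With the 75th percentile as the scale neither was past the 2-fold rule, and their signals were far above background on both arrays.

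Cdkn2c, the p18INK4c gene, was the INK4 member that read higher. Its single spot had a signal of 502.9 on the Foxp1 KO array and 249.1 on the wild-type array, a difference of 1.03 or 2.04-fold. The spot SD of its signal class was 0.13 and the software's error 0.21, and the differences of all measured probes of the class had an SD of 0.46. The gene sat at the edge of the 2-fold rule. In that signal class 1.05% of measured probes were at least 2-fold higher, and 136 of all measured genes were as high as Cdkn2c or higher. Cdkn2c was above 0 under all 9 other ways of processing and passed 2-fold under 6 of them. It has 1 probe of 1 spot. Choosing probes by brightness, dropping the background filter and keeping outlier spots therefore could not change its value. With array medians it stood at 2.11, where the median of all genes was 1.08, and after quantile normalization at 1.02. It stood at 0.93 with the 75th percentile over measured probes, 0.95 after normexp correction and 0.98 after cyclic loess.

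The RefSeq annotation gives Cdkn2c 2 starts as well, on the minus strand, at chr4:109666707-109667006 and chr4:109665323-109665622. They are shown as the windows of the other gene past the rule upwards, with GC boxes in capitals.
Cdkn2c window 1: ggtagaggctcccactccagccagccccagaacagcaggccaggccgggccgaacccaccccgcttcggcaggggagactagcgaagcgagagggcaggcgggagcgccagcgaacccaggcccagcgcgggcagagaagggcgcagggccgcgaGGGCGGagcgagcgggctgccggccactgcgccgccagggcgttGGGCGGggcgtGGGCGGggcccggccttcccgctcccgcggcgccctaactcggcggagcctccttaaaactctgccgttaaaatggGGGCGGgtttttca
Cdkn2c window 2: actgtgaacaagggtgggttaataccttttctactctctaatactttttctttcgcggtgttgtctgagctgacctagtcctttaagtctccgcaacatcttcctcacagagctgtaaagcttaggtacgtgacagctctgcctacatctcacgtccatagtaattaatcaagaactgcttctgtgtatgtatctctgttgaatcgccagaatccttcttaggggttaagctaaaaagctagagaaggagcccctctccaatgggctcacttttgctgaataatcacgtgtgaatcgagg
The first window holds 4 GC boxes and the second none, and neither holds a p53 site of the kind marked for Cdkn1a. Over the family, 7 genes had 10 such windows in the table. A forkhead core, searched as TNTTTAC on both strands, was in 0 of the 10, against 12.4% of all windows, and a GC box was in 8 of the 10. That these letters are missing says nothing of forkhead binding at or beyond these windows.

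Cdkn2a encodes 2 proteins in different reading frames, p16INK4a and p19ARF, which is no kinase inhibitor and acts by freeing p53 from Mdm2. Both of its probes are named for the same transcript. Which of the 2 proteins that transcript encodes was not settled here, so the values below are not assigned to p16INK4a. The brighter probe, A_55_P2008437, read 60.0 on the Foxp1 KO array and 123 on the wild-type array, a difference of -1.02 or 2.03-fold lower. The other probe, A_55_P2008438, read 6.38 in Foxp1 KO lens and 4.95 in wild-type lens and was not well above background on either array. The measured probe fell in the second-dimmest signal class, where 15.4% of probes were at least 2-fold lower and the median stood at -0.28, and it lay 0.74 below that median. Cdkn2a stayed past 2-fold under 3 of 8 other ways of processing. Taking the brightest measured probe and keeping outlier spots could not change its value, as 1 probe of 1 spot was measured. The third was the 75th percentile over measured probes, at -1.12. It read -0.70 after cyclic loess, -0.64 after quantile normalization and -0.64 after normexp correction. With array medians it stood at 0.055, and with no background filter, averaged over both probes, at -0.32. The spike-in of nearest signal, at 37.2 in Foxp1 KO lens and 81.4 in wild-type lens, differed by -1.12.

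Cdkn2b, the p15INK4b gene and next protein-coding neighbour of Cdkn2a, had 2 probes with differences of opposite sign under the scaling used. The probe A_55_P1979526 read 36.4 on the Foxp1 KO array and 56.0 on the wild-type array, a difference of -0.61. That value lay 0.07 above the median of its signal class, the dimmest, where 33.3% of measured probes were at least 2-fold lower. The probe A_55_P1988183 read 64.0 on the Foxp1 KO array, well above background, and 17.2 on the wild-type array, which was not. The software's error on that wild-type reading was 5.09. With a stand-in for the dim reading the probe was 3.13-fold higher in Foxp1 KO lens under this scaling (1.65 on the log2 scale). That value is no strict lower bound. Here 20.6, the lowest wild-type signal with a well-above-background flag anywhere on the array, stood in for the dim reading. Both probes were above 0 with array medians (0.47 and 2.99), after quantile normalization (0.30 and 3.04) and after cyclic loess (0.09 and 2.85). With the 75th percentile over measured probes they stood at -0.70 and 1.82, and after normexp correction at -0.36 and 0.62. The 0.62 is below the 1.65 found with the stand-in, so the size of the difference depends on the setting. The direction of the first probe thus depends on the scaling, and the wild-type reading of the second was too dim to measure, so no direction is given for Cdkn2b. The gene lies inside the span of a long noncoding RNA gene, Gm12610, in the RefSeq annotation, and whether the probes read that RNA was not tested. Cdkn2a and Cdkn2b share similar coding sequence, and reading of one by probes of the other was not tested either.

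Cdkn2d, the p19INK4d gene, read 2118 on the Foxp1 KO array and 2059 on the wild-type array. The difference of 0.05 was below the spot SD of its class, 0.08. Cdkn3, the Cdk2 phosphatase, read 223 on the Foxp1 KO array and 172 on the wild-type array, a difference of 0.39 or 1.31-fold. This was above its class spot SD of 0.13, below the SD of 0.46 over the probes of that class and under the 2-fold rule, and 1282 measured genes were as high or higher. Cdkn3 is known as a gene transcribed in dividing cells, unlike most of the family.

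**Figure D3:**
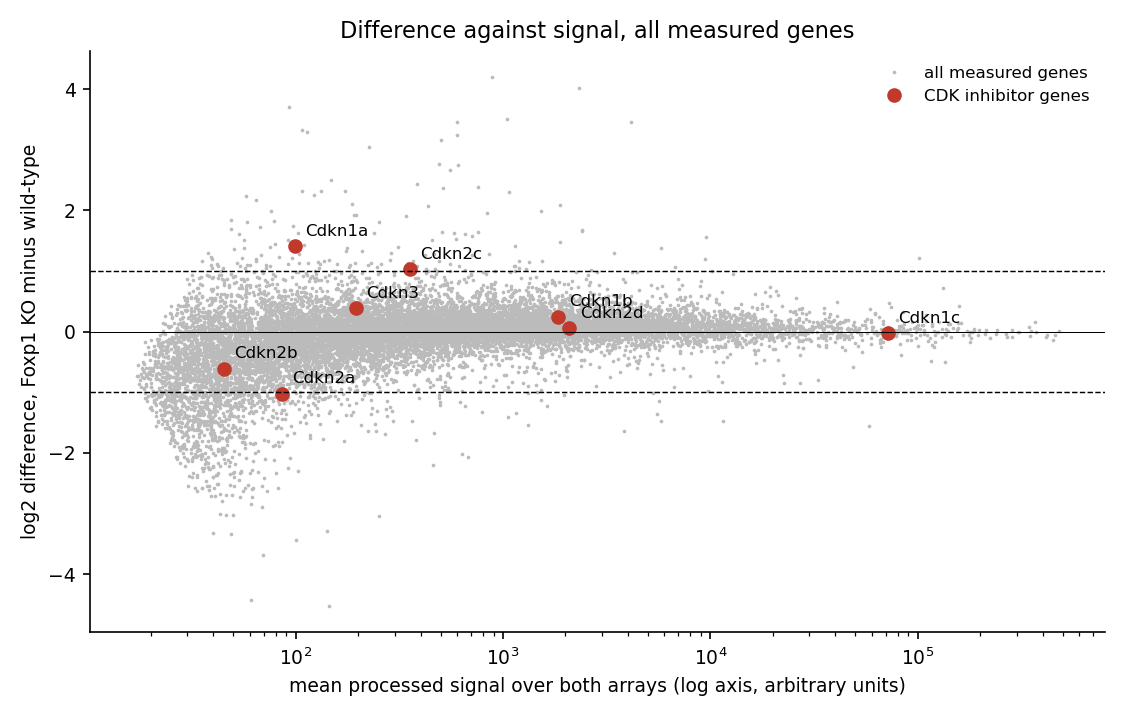
Log2 difference (Foxp1 KO minus wild-type) against mean processed signal over both arrays (arbitrary units, log axis) for all 14254 measured genes in grey, with the 8 CDK inhibitor genes in red. Dashed lines mark 2-fold. Cdkn1a at 1.41 and Cdkn2c at 1.03 lie above the upper line, and Cdkn2a at -1.02 lies on the lower line in the range where many dim genes read low.

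The kinases and cyclins that these proteins bind were set beside them. Of 12 genes 10 were measured and 0 passed 2-fold in either direction. Of the 10, 9 lay above 0, against 7257 of the 14254 measured genes. The median was 0.23, against 0.01 over all measured genes. Ccnd1, the cyclin D that Cdk4 and Cdk6 take up, had a difference of 0.59 at signals of 23773 in Foxp1 KO lens and 15889 in wild-type lens. The mitotic cyclins Ccnb2 and Ccnb1 stood at 0.54 and 0.49, and Ccna2, which works in S phase, at 0.45. Cdk4, the kinase the INK4 proteins bind, read 0.17 over 3 probes that ran between 0.12 and 0.22.

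The pocket proteins, which cyclin-dependent kinases switch off, and the E2F factors they hold back had 7 of 8 genes measured and 0 past 2-fold. Of the 7, 5 lay above 0 and the median was 0.26. Among all measured genes 7257 of 14254 lay above 0, the share to set beside this list and the next. Rb1, the retinoblastoma gene, was at 0.39, E2f2 at 0.31, Rbl2 at 0.27 and E2f1 at 0.26. Genes whose products act on transcription of the inhibitors had 16 of 18 measured, 0 past 2-fold, 11 above 0 and a median of 0.04. Gata3, a factor needed for fibre cells to leave the cycle, was highest at 0.69, with 1515 in Foxp1 KO lens and 947 in wild-type lens. Prox1, which mouse lens needs to express Cdkn1b and Cdkn1c, read 0.03. Foxo3 and Trp53 were lowest, at -0.58 and -0.47. Foxo3 was dim at 35.7 in Foxp1 KO lens and 53.9 in wild-type lens, and Trp53, the p53 gene, read 107.3 in Foxp1 KO lens and 149.7 in wild-type lens. Smad4, of the TGF-beta pathway, was at 0.29. Genes that turn over the inhibitor proteins, chiefly subunits of cullin ubiquitin ligases, had 10 of 11 measured, 0 past 2-fold and a median of 0.12. Skp1 stood at 0.29, Dtl at 0.21, and Ddb1 and Cul4b at 0.19 and 0.18.

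Because p53 induces Cdkn1a, 16 other p53 targets were listed, and 15 were measured. Of these 2 were at least 2-fold higher, against 1.02% of all measured genes, and 0 were lower, against 5.86%. Of the 15 genes 14 lay above 0, against 7257 of the 14254 measured genes, and the median was 0.31, in a list that had been described on these data before. Gdf15, a stress cytokine, was higher at 1.83 and Phlda3, an Akt inhibitor, at 1.42. Pmaip1, an activator of apoptosis, read 309 in Foxp1 KO lens and 176 in wild-type lens, a difference of 0.82. Ccng1, cyclin G, read 4479 in Foxp1 KO lens and 2986 in wild-type lens, a difference of 0.60. The 1 measured target below 0 was Mdm2, the ubiquitin ligase gene whose product marks p53 for degradation, which read 2186 in Foxp1 KO lens and 3185 in wild-type lens, a difference of -0.53. The only p53 target besides Cdkn1a with a p53 site of the same definition among the 12 target genes that have windows was Ccng1, at chr11:40755462-40755481 on the minus strand, and both sites are printed in capitals for comparison.
Cdkn1a site: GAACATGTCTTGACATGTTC
Ccng1 site: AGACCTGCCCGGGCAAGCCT
Each has 1 mismatch to the consensus. The first probe of Cdkn1a, at 2.72, exceeded every measured gene of the p53 list, and its second probe stood at 0.09.

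Cdkn1c sits in an imprinted domain whose long noncoding RNA, Kcnq1ot1, silences it on the paternal copy. Of 8 genes of the domain 6 were measured. Kcnq1ot1 was dim and read 56.2 in Foxp1 KO lens and 52.5 in wild-type lens, a difference of 0.11. The potassium channel gene Kcnq1, whose span contains Kcnq1ot1, was the 1 gene past 2-fold, and read 30.4 in Foxp1 KO lens against 162.9 in wild-type lens, a difference of -2.41. Of all measured genes 5.86% were at least 2-fold lower, and in the second-dimmest signal class, in which Kcnq1 falls, 15.4% of probes were. Its probe is too dim to enter when brighter probes alone are kept. Cd81 and Tssc4 lay at 0.20 and 0.15.

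**Figure D4:**
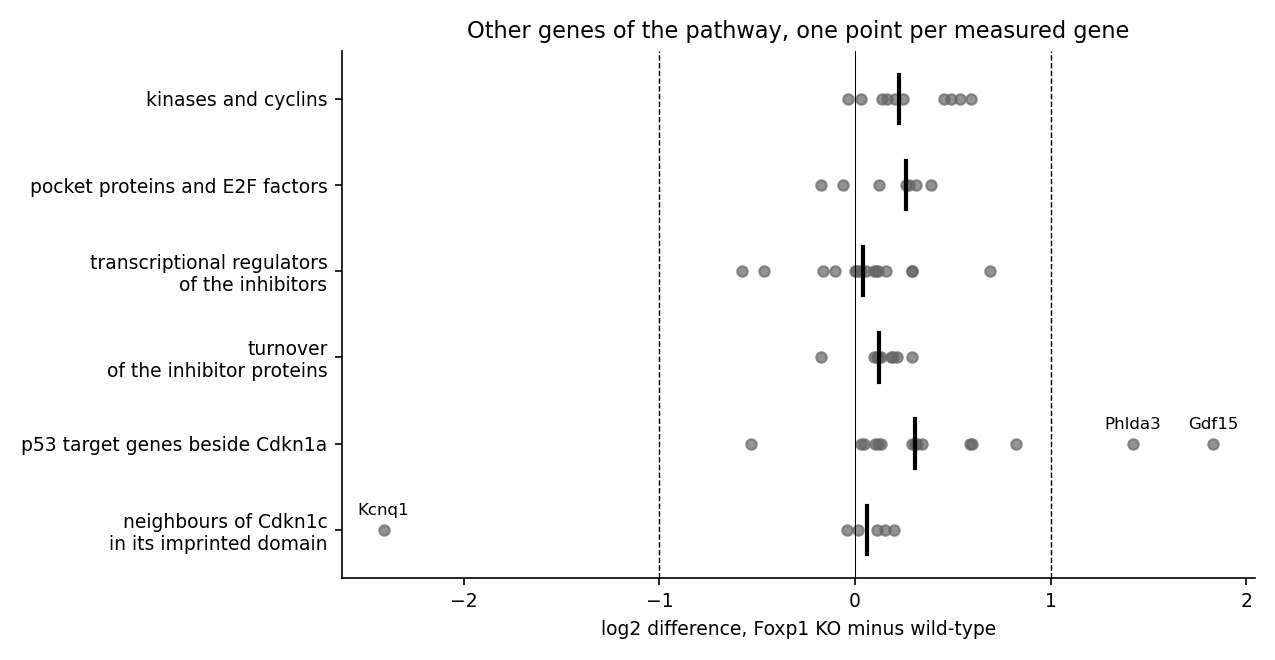
Log2 difference (Foxp1 KO minus wild-type) of every measured gene of 6 lists around the inhibitors, 1 point per gene, with the median of each list as a black bar and 2-fold as dashed lines. Gdf15 and Phlda3 among the p53 targets and Kcnq1 among the neighbours of Cdkn1c lie beyond the lines.

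The labelled tissue was checked against its markers. All 13 lens markers were measured, 0 passed 2-fold, and their median was -0.01. Markers of other cells differed between the arrays. Of 12 retina and neuron markers 11 were measured and all of these lay above 0, against 7257 of the 14254 measured genes. Their median was 0.46. Pou4f2, at 1.34, was the 1 gene at least 2-fold higher, against 1.02% of all measured genes. Summed signals here take the highest probe of every listed gene on the array, measured or not, in units of the 75th percentile. For the retina and neuron list the sum was 33.4 in Foxp1 KO lens and 22.9 in wild-type lens. Of 7 mesenchyme markers 4 were measured, and 2 of them were at least 2-fold higher, against 1.02% of all measured genes. The summed signals of all 7 were 4.79 in Foxp1 KO lens and 3.63 in wild-type lens. These sums include 3 genes that were not measured on both arrays. Dcn read 157.9 in Foxp1 KO lens against 22.2 in wild-type lens, Lum 48.9 against 4.34, and Twist1 7.59 against 25.1. The lists for endothelium, macrophages, erythroid cells, pigmented epithelium and surface epithelium had medians between -0.39 and -0.09. Emcn, of endothelium, was the 1 gene of these lists past 2-fold, at -1.12, against 5.86% of all measured genes. Emcn, C1qa, Krt5 and Krt14 are among the dim probes, and over all probes the 2 dimmest classes had medians of -0.68 and -0.28. The summed surface epithelium signal was 6.74 in Foxp1 KO lens and 6.26 in wild-type lens. These markers moved in the same pair of arrays as Cdkn1a and Cdkn2c, and their part in those differences was not tested.

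**Figure D5:**
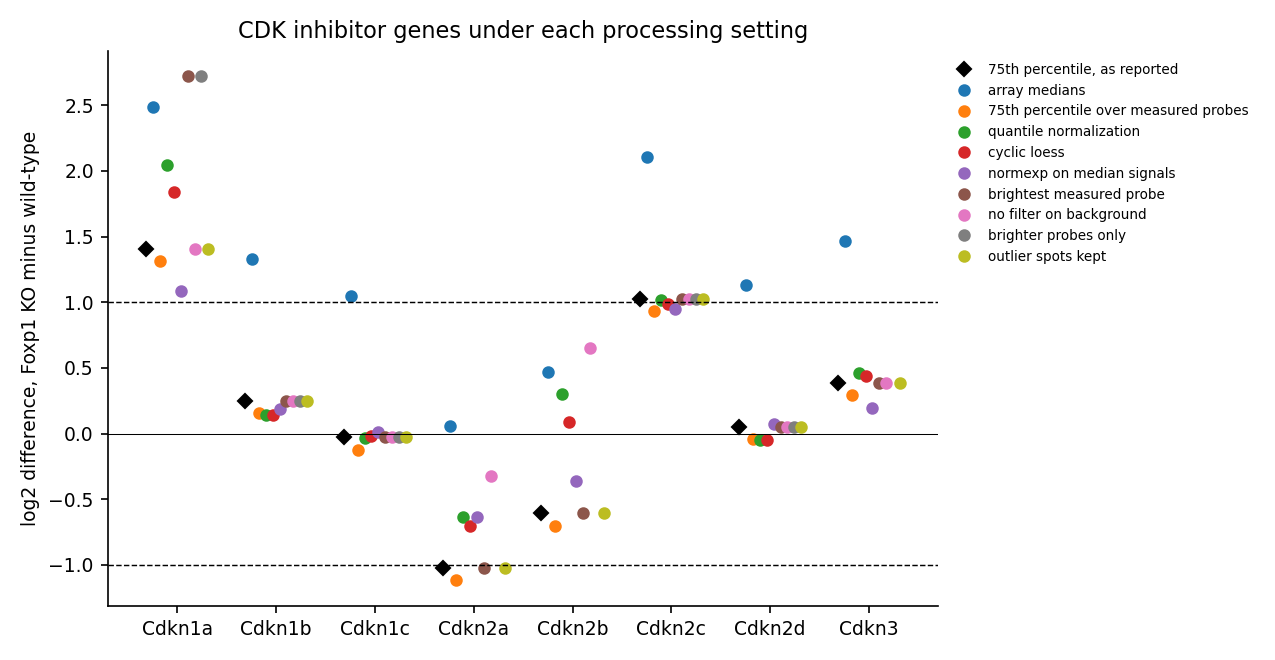
Log2 difference (Foxp1 KO minus wild-type) of each CDK inhibitor gene as reported (black diamonds) and under 9 other ways of processing (coloured points), with 2-fold as dashed lines. Cdkn1a, as the mean of its 2 probes or its first probe alone, stays above the upper line throughout, between 1.08 and 2.72. Cdkn2c lies near that line, and Cdkn2a and Cdkn2b spread across 0.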

How the data were processed

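Each of the 2 arrays, 1 per genotype, was deposited by the authors as scanner output of Agilent Feature Extraction 10.7.3.1, per the file headers. The deposited values are spot intensities on a linear scale, background-subtracted within the array, with the software's error estimate and yes or no flags. Per the file headers no scaling between arrays was recorded, and the layout was annotated to mm9. Control spots were dropped, as was any spot with an outlier flag on 1 of the arrays or both. The log2 signal minus the log2 of the 75th percentile of gene spots was averaged over the spots of a probe. A probe was measured when over 50% of its spots carried the well-above-background flag on each array, and a gene took the mean of its measured probes. Symbols came from RefSeq transcript names in the GRCm38.p6 table, used for names and neighbours alone, which named 27225 probes. The 5 signal classes hold equal numbers of measured probes. Promoter windows are RefSeq sequences of GRCm38.p6, and 7 of the 8 genes matched. Alternatives used limma 3.58.1 (R 4.3.3) and pandas 2.3.3. The scaling, the averaging to genes and the 2-fold rule were tested on simulated differences among spots well above background on both arrays. That simulation held no background filter, no outlier flags and no low reading of dim probes.

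The members, lists and rule of size were chosen with earlier results of these data known. All 8 genes are named with every probe. Of each pathway list the genes past 2-fold are named, filled to 4 by size of difference; Cdk4, Prox1 and Mdm2 were added after their values were seen. Precision is limited by having 1 array per genotype. The arrays were neighbours on 1 slide, and their place on it cannot be told apart from genotype. The normexp correction planned on mean signals was run on median signals, which the files hold.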

Additional observations from a re-analysis of the deposited data

How the results depend on the processing

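The result rests on 1 array per genotype, and Cdkn1a alone was past 2-fold under every one of the 9 other settings that give gene values, between 1.08 and 2.72. Those values are the mean of its 2 probes or the first probe alone. Over the 6 settings that give probe values, the first probe ran between 2.16 and 3.80. The second ran between -0.003 and 1.22, so the 2-fold result is that of the first probe. Cdkn2c was above 0 under all 9, between 0.93 and 2.11, and the settings that only choose probes or spots could not change its value. Scaling by array medians raised the median of all genes to 1.08, which turned Cdkn2a and its measured probe to 0.055. The number of inhibitor genes at least 2-fold higher (2 as reported) was 1 with the 75th percentile over measured probes, after cyclic loess and after normexp, and 6 with array medians, where Cdkn1b, Cdkn1c, Cdkn2d and Cdkn3 passed as well. The number lower (1 as reported) was 0 with array medians, quantile normalization, cyclic loess, normexp (added after seeing the data) and no filter on background. It was 2 under a 1.5-fold rule. With brighter probes only it was 0 as well, but 5 genes remained and Cdkn2a was not among them, so that count could not include it. The median of the 8 genes moved to 1.23 with array medians and 0.32 with no filter. Pathway genes at least 2-fold higher (2 as reported) numbered 56 with array medians and 4 after quantile normalization. They numbered 1 with brighter probes only and 7 under the 1.5-fold rule. Those lower (1 as reported) numbered 4 with no filter and 0 with brighter probes only, where Kcnq1 is too dim to enter. Over all genes the split of 146 higher and 835 lower became 8724 and 101 with array medians, 805 and 224 after quantile normalization, 475 and 263 after cyclic loess, and 72 and 99 after normexp. Where no value above shows it, the cause was not tested. Both dimmest signal classes end at a mean signal of 117 over both arrays; the probes of Cdkn2a and Cdkn2b and the second Cdkn1a probe lie there and are limited by signal over background, as is the wild-type reading of 106 of the first Cdkn1a probe. No paired analysis was possible because each group holds 1 array.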

Other observations

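The protein-coding genes next to the inhibitors in the RefSeq annotation were read as values. Srsf3, a splicing factor gene beside Cdkn1a, stood at 0.05 on the log2 scale, Faf1 beside Cdkn2c at 0.33, and Mtap, the gene on the other side of Cdkn2a from Cdkn2b, at -0.24. Bmp4, the growth factor gene before Cdkn3, had a difference of -0.85 with its measured probe, which read 923 in Foxp1 KO lens and 1680 in wild-type lens. These neighbours were chosen by position, after the values of the inhibitors had been seen.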
